A study of Mus musculus with 6 samples.

Results

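The activin and TGF-beta genes described here are 10 genes: the activin subunit genes Inhba and Inhbb, the TGF-beta ligand genes Tgfb1 and Tgfb2, the BMP ligand genes Bmp4 and Bmp6, the TGF-beta receptor genes Tgfbr1 and Tgfbr2, and the activin antagonist genes Fst and Fstl3. They were found by gene symbol, and all 10 were present among the 18956 genes of the deposited table. They were selected on their membership in the pathway with the difference between the libraries labelled CSE-KO and WT already known, so their values in that comparison are given as a description, without a test. RNA was sequenced from endothelial cells isolated from mouse lung, 3 libraries (WT 1 to 3) carrying the labels WT and Cre-neg and 3 (CSE-KO 1 to 3) the labels CSE-KO and Cre-pos. CSE is cystathionine gamma-lyase, an enzyme that makes cysteine and is encoded by Cth. The Cre driver, the deleted exons, the strain, the age of the mice and whether each replicate came from its own animal cannot be read from the labels. WT and CSE-KO below mean the libraries carrying those labels.

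Activins are dimers of inhibin beta chains: 2 beta A chains, from Inhba, form activin A, and 2 beta B chains, from Inhbb, form activin B. Activins and TGF-betas bind a type II receptor kinase that switches on a type I receptor kinase, which phosphorylates SMAD2 and SMAD3, while BMPs signal mainly through SMAD1, SMAD5 and SMAD9. Follistatin (Fst) and follistatin-like 3 (Fstl3) bind activins and keep them from their receptors. In endothelium, TGF-beta and BMP signals are known to act on vessel growth, quiescence and the gain of mesenchymal features.

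The activin subunit genes stood at opposite ends of the 10 genes, so the sequence upstream of each start site is shown. Both runs hold the 250 bases before the RefSeq start (GRCm38.p6, the assembly of mm10), 5′ to 3′ on the strand of the gene, with each CG dinucleotide in capitals. Inhba lies on the plus strand (chr13:16011601-16011850) and Inhbb on the minus strand (chr1:119422249-119422498).
Inhba: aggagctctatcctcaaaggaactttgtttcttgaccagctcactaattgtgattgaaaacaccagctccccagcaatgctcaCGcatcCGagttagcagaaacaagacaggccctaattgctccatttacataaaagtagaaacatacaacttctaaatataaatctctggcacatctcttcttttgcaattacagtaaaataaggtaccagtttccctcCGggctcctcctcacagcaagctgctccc
Inhbb: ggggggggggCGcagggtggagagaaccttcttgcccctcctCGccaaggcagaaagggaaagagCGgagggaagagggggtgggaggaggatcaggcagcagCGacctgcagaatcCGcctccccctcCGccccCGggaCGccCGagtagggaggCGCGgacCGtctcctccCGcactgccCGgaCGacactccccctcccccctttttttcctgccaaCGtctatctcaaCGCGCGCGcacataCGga

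The Inhba run held 3 CG dinucleotides and 43.2% G or C, and the Inhbb run held 21 and 68.0%. The median G or C share of the 32851 promoters of the same length was 52.4%. Promoters of all of the genes but Fst were searched on both strands for 4 motifs, 10 promoters in all, since Tgfbr1 has a pair of starts. The palindromic SMAD box GTCTAGAC (in 0.167% of all promoters), the AP-1 motif TGANTCA (6.75%) and the ATF4 composite element TGATGNAA (3.45%) were in none of these 10. The GC-rich SMAD element GGCGCC (9.59%) was in 1 of them, upstream of Tgfbr1, from 233 to 228 bases before the start, and overlapped no other motif.

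Library totals ran from 6028772 to 6052275 normalized counts in WT and from 5698922 to 5765008 in CSE-KO. Cth itself stood at 29, 27 and 26 in WT 1 to 3, against 49, 43 and 63 in CSE-KO 1 to 3, higher where the label says knockout. A value summed over the gene also counts exons outside a deletion, so it does not check the label. In genes under 0.01 counts per exonic base, the WT libraries were as close as counting noise allows. Their mean squared difference divided by their sum was between 0.955 and 1.011 there, where counting alone gives 1. In those low genes CSE-KO 2 and 3 differed slightly more (1.172 ± 0.061, SE over 784 genes) and CSE-KO 1 stood further off (1.279 and 1.459). All 10 genes lay above that limit, at 22.8 per exonic kilobase or more. Over all genes compared (12136 to 12139 per WT pair), the WT pairs gave 0.693 to 0.742, less than counting alone. CSE-KO 2 and 3 also gave less than 1 there, while CSE-KO 1 gave 1.716 and 2.024 against them. SDs and SEs of the 10 genes may be narrower than counting gives, which was not tested. The spread between the WT libraries may thus be technical, and every n of 3 below counts libraries. Endothelial markers were abundant (Cdh5 2829 ± 17.8 in WT against 2673 ± 6.43 in CSE-KO, Pecam1 2314 ± 22.9 and 1879 ± 5.86, Tie1 2291 ± 37.1 and 1264 ± 77.6), except Vwf, at 1 to 17. Summed over 12 endothelial markers, WT held 16330 to 16585 and CSE-KO 10710 to 11418 normalized counts. Of the 12, 10 fell, 4 of them at least 2-fold (Kdr, Cldn5, Tek and Flt1), and 2 were not called. Over all 13750 tested genes, 38.3% were called higher, 39.0% were called lower and 22.3% differed at least 2-fold, called or not. No marker list was tested against these shares. Macrophage markers summed to 1020 to 1061 in WT and 1303 to 1465 in CSE-KO (8 of 10 tested rose and 1 fell). Most of the WT sum was Cd14, which fell from 779 ± 7.51 to 239 ± 67.1 (adjusted p = 0.0012). Without it the sum was 232 to 286 in WT, against 1008 to 1249 in CSE-KO. Lyz2 rose from 31 ± 7.21 to 438 ± 29 (adjusted p = 2.6e-08). Adgre1, Marco, Itgam and Ptprc were at 0 in all WT libraries and at means of 51.3, 47.7, 27 and 22 in CSE-KO. Mrc1 was at 97 ± 16.1 and 90.7 ± 14.8 and was not called (adjusted p = 0.57). Mesothelial markers summed to 208 to 223 and 796 to 952 (5 of 5 tested rose) and mural markers to 477 to 514 and 805 to 914 (3 of 6 rose and 2 fell). Fibroblast markers overlapped between the groups (2553 to 2595 and 2399 to 2743), as did the epithelial list (275 to 318 and 273 to 279). The part of these cell types in the values below was not tested, and in bulk RNA fewer cells of a type and less RNA per cell cannot be told apart.

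The activin subunits exchanged places. Inhba was low in WT and high in CSE-KO, Inhbb was high in WT and low in CSE-KO, and in neither gene did the groups overlap. Inhba (ENSMUSG00000041324, protein coding, chromosome 13, 16011851 to 16031621, plus strand, mm10) stood at 243, 261 and 257 normalized counts in WT 1 to 3, against 1614, 1658 and 1682 in CSE-KO 1 to 3. Its mean was 254 ± 9.45 in WT and 1651 ± 34.5 in CSE-KO (SD, n = 3 libraries), 6.51-fold higher, with a log2 difference of 2.7 (SE 0.04). Among the 13750 genes tested, 4.36% had a larger difference in either direction.

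Inhbb (ENSMUSG00000037035, chromosome 1, 119415465 to 119422248, minus strand) stood at 870, 913 and 872 in WT 1 to 3, against 165, 106 and 97 in CSE-KO 1 to 3. Its mean was 885 ± 24.3 in WT and 123 ± 36.9 in CSE-KO, 7.21-fold lower, with a log2 difference of −2.89 (SE 0.22), and 3.73% of tested genes had a larger one. Within CSE-KO, replicate 1 was the highest, and the coefficient of variation, 30.1% over the 3 libraries, was the widest of the 10 genes. The other 9 genes had coefficients between 1.12% and 7.15% in CSE-KO.

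Levels of different genes can be compared only per length, here as normalized counts per kilobase of exon. Per kilobase, Inhba was at 39.7 ± 1.48 in WT against 258 ± 5.40 in CSE-KO, and Inhbb at 208 ± 5.70 and 28.8 ± 8.68. The ratio of Inhba to Inhbb was 0.186, 0.190 and 0.196 in WT 1 to 3, against 6.51, 10.4 and 11.5 in CSE-KO 1 to 3. The sum of both per kilobase moved far less than either gene, from 248 ± 6.82 to 287 ± 3.65. Inha, the alpha chain that turns a beta chain into inhibin, had values from 0 to 3 across the 6 libraries and was too low to be tested.

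**Figure D1:**
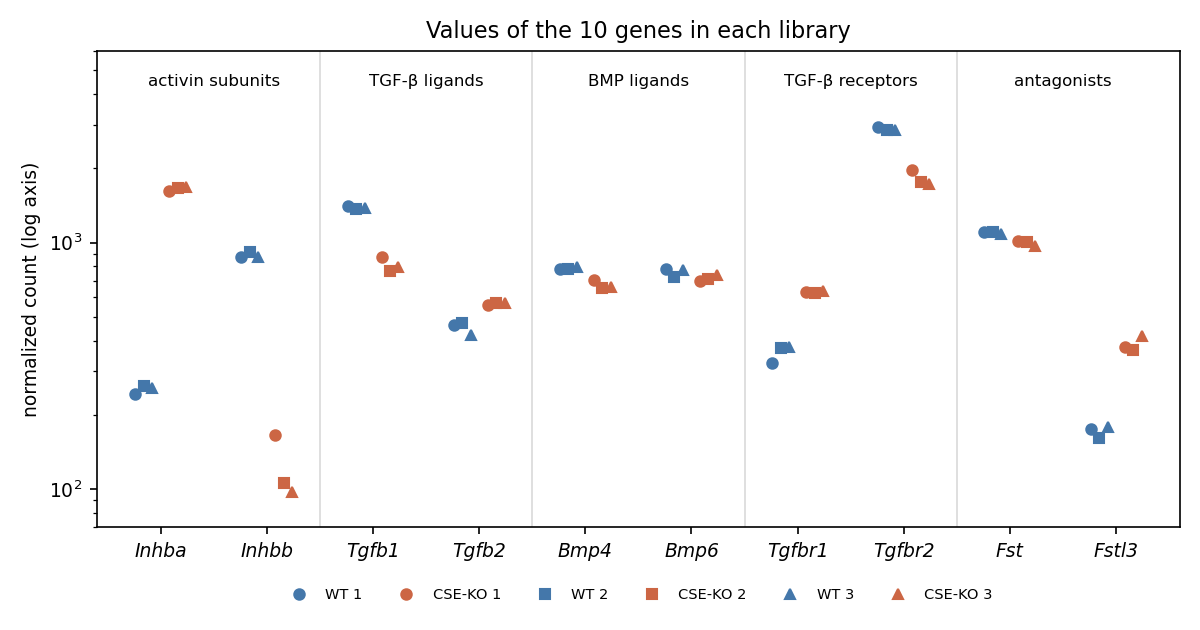
Normalized counts (log axis) of the 10 genes in the 3 WT libraries (blue) and the 3 CSE-KO libraries (orange), with marker shapes for replicates 1 to 3 and genes grouped by role. Inhba lies between 243 and 261 in WT and between 1614 and 1682 in CSE-KO, Inhbb between 870 and 913 and between 97 and 165, and only the values of Bmp6 overlap between the groups.

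The TGF-beta ligand genes also moved apart. Tgfb1, the most widely made TGF-beta isoform (ENSMUSG00000002603, chromosome 7, 25687002 to 25705077, plus strand), was at 1406, 1372 and 1383 in WT, against 875, 768 and 794 in CSE-KO. Its mean went from 1387 ± 17.3 to 812 ± 55.8, 1.71-fold lower (log2 difference −0.77, SE 0.04). Every CSE-KO library lay far below the lowest WT library. Tgfb2, an isoform with a large role in heart and vessel development (ENSMUSG00000039239, chromosome 1, 186622792 to 186705989, minus strand), was at 464, 474 and 422 in WT, against 556, 569 and 567 in CSE-KO. Its mean went from 453 ± 27.6 to 564 ± 7, 1.24-fold higher (log2 difference 0.32, SE 0.05), and the groups did not overlap. The ratio of Tgfb1 to Tgfb2 per kilobase was 3.48, 3.32 and 3.76 in WT, against 1.81, 1.55 and 1.61 in CSE-KO, so Tgfb1 was the more abundant of the pair in every library.

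Among the 3 pairs of ligand genes, the BMP ligand genes differed least. Bmp4, a ligand that acts through SMAD1 and SMAD5 (ENSMUSG00000021835, chromosome 14, 46383520 to 46390669, minus strand), was at 781, 780 and 794 in WT, against 702, 656 and 659 in CSE-KO. The mean went from 785 ± 7.81 to 672 ± 25.7, 1.17-fold lower (log2 difference −0.22, SE 0.03), with no overlap between the groups. Bmp6, an endothelial BMP also known to drive the iron hormone hepcidin in the liver (ENSMUSG00000039004, chromosome 13, 38345107 to 38500302, plus strand), was at 782, 724 and 776 in WT, against 699, 712 and 739 in CSE-KO. Its means were 761 ± 31.9 and 717 ± 20.4 (log2 difference −0.09, SE 0.04), and the highest CSE-KO library exceeded the lowest WT library. Scaling the libraries to equal totals shifted the median log2 difference of all tested genes from 0.001 to 0.077, so differences as small as that of Bmp6 depend on the scaling.

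The receptor genes moved in opposite directions as well. Tgfbr1, the type I receptor kinase (ENSMUSG00000007613, chromosome 4, 47353222 to 47414931, plus strand), was at 325, 375 and 378 in WT, against 630, 622 and 636 in CSE-KO. The mean went from 359 ± 29.8 to 629 ± 7.02, 1.75-fold higher (log2 difference 0.81, SE 0.06). Tgfbr2, the type II receptor that binds the ligand first (ENSMUSG00000032440, chromosome 9, 116084293 to 116175360, minus strand), was at 2945, 2850 and 2863 in WT, against 1969, 1760 and 1730 in CSE-KO. The mean went from 2886 ± 51.5 to 1820 ± 130, 1.59-fold lower (log2 difference −0.67, SE 0.05), and the groups of neither receptor overlapped. Per kilobase, Tgfbr2 exceeded Tgfbr1 by 7.23, 6.07 and 6.04 times in WT 1 to 3 and by 2.49, 2.26 and 2.17 times in CSE-KO 1 to 3.

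**Figure D2:**
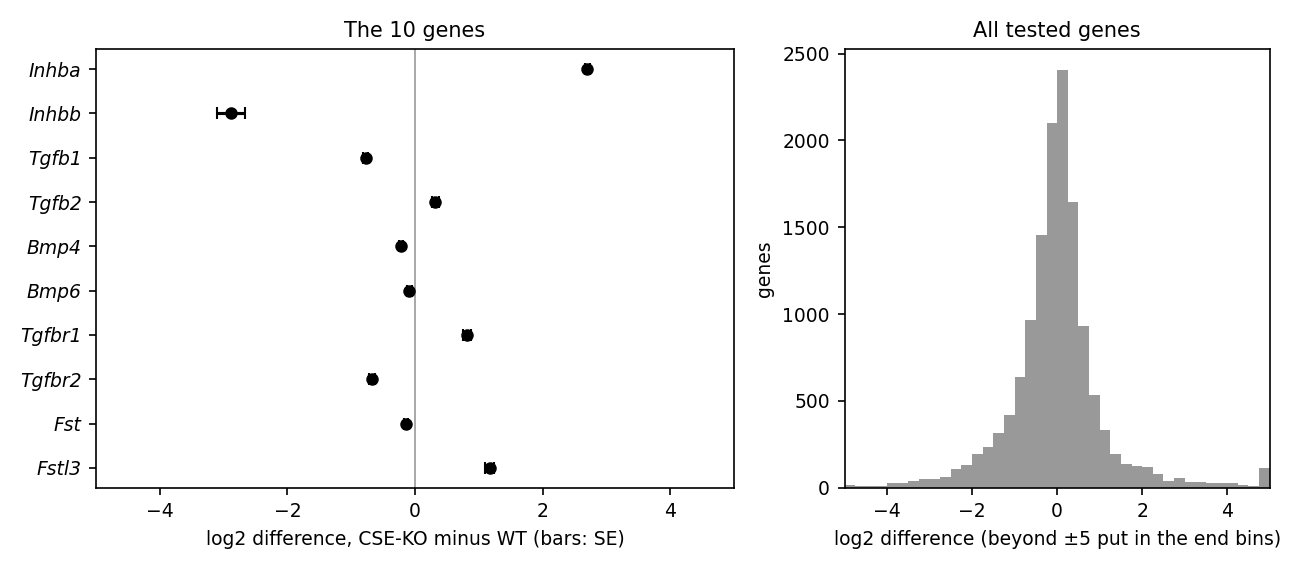
Left, log2 difference (CSE-KO minus WT) of each of the 10 genes, with bars for the SE from limma; right, the distribution of the same quantity over all 13750 tested genes. Inhba at 2.7 and Inhbb at −2.89 lie in the tails of that distribution, Fstl3 at 1.17 lies beyond its centre, and the other genes lie within 1 of 0.

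Of the activin antagonists, 1 was nearly level and 1 was higher. Fst (ENSMUSG00000021765, chromosome 13, 114452290 to 114458951, minus strand) was at 1109, 1099 and 1084 in WT, against 1012, 1004 and 969 in CSE-KO. Its mean went from 1097 ± 12.6 to 995 ± 22.9, 1.10-fold lower (log2 difference −0.14, SE 0.03), and 80.7% of tested genes had a larger difference. Fstl3 (ENSMUSG00000020325, chromosome 10, 79777272 to 79782630, plus strand), whose product is a secreted relative of follistatin, was at 175, 161 and 179 in WT, against 377, 365 and 416 in CSE-KO. Its mean went from 172 ± 9.45 to 386 ± 26.7, 2.25-fold higher (log2 difference 1.17, SE 0.07), and the groups were well apart. Fst exceeded Fstl3 per kilobase by 3.38, 3.64 and 3.23 times in WT and by 1.43, 1.47 and 1.24 times in CSE-KO. The ratio of Fst to Inhba per kilobase was 6.35, 5.86 and 5.87 in WT 1 to 3, against 0.873, 0.843 and 0.802 in CSE-KO 1 to 3. The sum of Fst and Fstl3 per kilobase was 309 ± 3.95 in WT against 375 ± 6.62 in CSE-KO, beside 248 ± 6.82 and 287 ± 3.65 for the sum of both activin subunits.

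**Figure D3:**
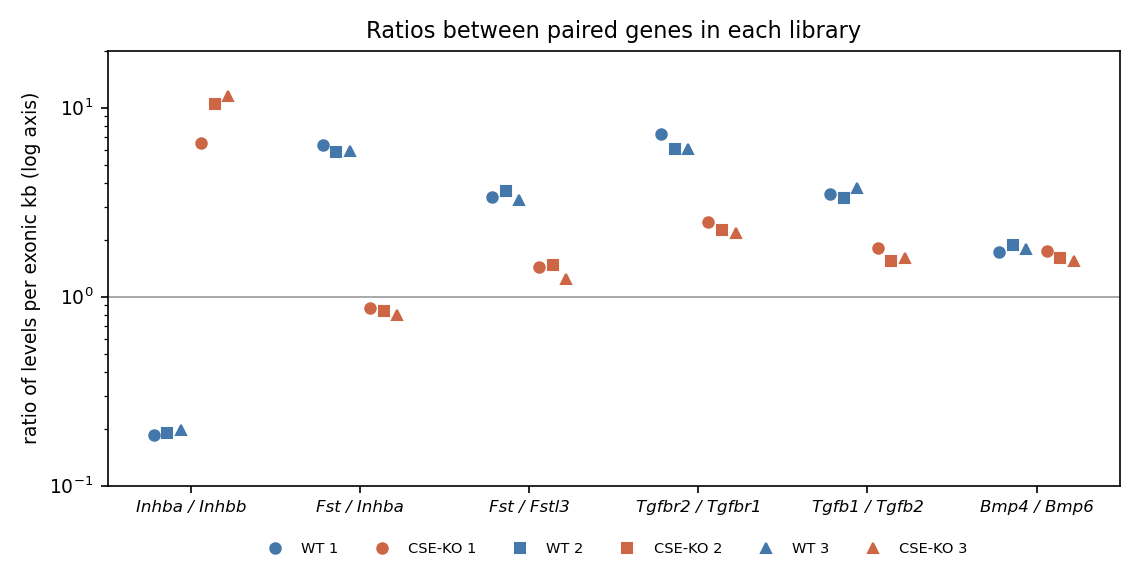
Ratios of levels per exonic kilobase between pairs of the 10 genes (log axis) in each WT (blue) and CSE-KO (orange) library, with a line at equal levels. Inhba to Inhbb goes from at most 0.196 to at least 6.51, Fst to Inhba lies below 1 in all 3 CSE-KO libraries, and the ratios of Bmp4 to Bmp6 overlap.

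The order of the 10 genes per kilobase in WT was Tgfbr2 (353 ± 6.29), Bmp4 (349 ± 3.47), Tgfb1 (275 ± 3.44), Fst (239 ± 2.74), Inhbb (208 ± 5.70), Bmp6 (195 ± 8.18), Tgfb2 (78.3 ± 4.76), Fstl3 (70.2 ± 3.87), Tgfbr1 (55.0 ± 4.56) and Inhba (39.7 ± 1.48). Neighbours whose libraries overlapped were Tgfbr2 with Bmp4 and Tgfb2 with Fstl3. In CSE-KO the order was Bmp4 (299 ± 11.4), Inhba (258 ± 5.40), Tgfbr2 (222 ± 15.9), Fst (217 ± 4.98), Bmp6 (184 ± 5.23), Tgfb1 (161 ± 11.1), Fstl3 (158 ± 10.9), Tgfb2 (97.4 ± 1.21), Tgfbr1 (96.3 ± 1.07) and Inhbb (28.8 ± 8.68). There Tgfbr2 overlapped with Fst, Tgfb1 with Fstl3 and Tgfb2 with Tgfbr1. Inhba thus went from the last place to the second, and Inhbb from the fifth to the last. Set against all tested genes with a known length, Inhba lay above 36.7% of them in WT and above 93.7% in CSE-KO, and Inhbb above 89.4% and 32.2%.

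By the rule used for all genes (limma, Benjamini-Hochberg adjusted p under 0.05), 9 of the 10 genes were called, all but Bmp6, 4 of them higher and 5 lower in CSE-KO. Of all 13750 tested genes 77.4% were called, 38.3% higher and 39.0% lower. The groups did not overlap in 9 of the 10 and in 80.4% of all tested genes. Nothing is read from these counts, since the genes were selected with this comparison known. A log2 difference beyond 1 was present in 3 of the 10 (Inhba, Inhbb and Fstl3), and one of at least 1 in 22.3% of all tested genes. CSE-KO 1 was the CSE-KO library nearest to the WT mean in 7 of the 10 genes, and in 58.0% of all called genes.

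All overlapping annotated genes lie on the strand opposite to their partner among the 10, and the sources used here do not say whether reads were counted by strand. Bmp6 shares 224 bases at its end with Txndc5, which was at 1144, 1116 and 1130 in WT, against 957, 948 and 953 in CSE-KO. Bmp4 holds the antisense gene Gm15222, at 22 to 27 in WT and 13 to 17 in CSE-KO. The genes opposite Fst (Gm47040), Fstl3 (Prss57) and Tgfb2 (Gm29491) stayed at or below 9 in every library. Inhba shares 11573 bases with B230303A05Rik and 6240 with Gm48444, and neither had values among the deposited genes. The same holds for Gm15217 opposite Bmp4, 4930579J19Rik opposite Bmp6 and Gm26169 opposite Tgfb2.

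The genes whose 6 values followed those of Inhba and Inhbb most closely were found by the root mean square distance of their centred log2 values over the 6 libraries, among 10477 genes. Nearest to Inhba were Plcxd2 (distance 0.049), Eid3 (0.060) and Dedd2 (0.077). Plcxd2, which encodes a protein with a phospholipase C domain, was at 193, 196 and 186 in WT, against 1159, 1241 and 1291 in CSE-KO. Nearest to Inhbb were Trem1 (0.045), an activating receptor of myeloid cells, Kbtbd11 (0.055) and the endothelin receptor gene Ednrb (0.055). Ednrb was at 859, 906 and 839 in WT, against 155, 99 and 86 in CSE-KO, with replicate 1 the highest within CSE-KO. Genes chosen for their likeness to Inhbb share that order through the choice itself.

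The rest of the pathway was read from lists sorted by role, which leave out the 10 genes, and these genes were tested in the same fit. Each count below stands beside the shares over all 13750 tested genes: 38.3% called higher and 39.0% called lower. A difference of at least 2-fold, called or not, was present in 22.3%. No list was tested against these shares. Ligands other than the 6 above were few: 12 of 27 listed genes were in the table, and 7 had enough counts to be tested. Of these, 3 rose, 3 fell and 1 was not called, with a median log2 difference of 0.15 against 0.001 over all tested genes. Gdf15, a stress-induced distant member of the family, rose from 62.7 ± 6.66 to 726 ± 26.1 (log2 difference 3.53, limma adjusted p = 8.9e-11). Tgfb3, the third TGF-beta isoform, fell like Tgfb1, from 652 ± 16.9 to 208 ± 41.7 (log2 difference −1.66, adjusted p = 6.9e-05). Bmp7 fell from 106 ± 2.31 to 10 ± 7.21 (18, 8 and 4 in CSE-KO 1 to 3, adjusted p = 0.00046, not called with libraries averaged as described for Pcsk6 below), and Lefty1, an inhibitor of Nodal signalling, from 68.3 ± 4.04 to 32.0 ± 7.21 (adjusted p = 0.00018). Gdf11 was at 65.0 ± 13.2 and 72.3 ± 14.2 and was not called (adjusted p = 0.46).

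Among the other receptors and co-receptors, 5 of 12 tested genes rose, 6 fell and 1 was not called (median −0.06). The largest fall was that of an accessory receptor. Tgfbr3, the betaglycan that presents TGF-beta 2 and inhibin, fell from 1045 ± 15.9 to 226 ± 49.5 (log2 difference −2.23, adjusted p = 0.00011). Eng, the endothelial co-receptor endoglin, fell from 2466 ± 52.3 to 1895 ± 47.8 (adjusted p = 1.1e-07), and Nrp2 from 3251 ± 43.5 to 2299 ± 65.4 (adjusted p = 9.9e-09). Nrp1, a neuropilin that binds TGF-beta as well as VEGF, rose from 71.3 ± 6.51 to 437 ± 14.7 (log2 difference 2.61, adjusted p = 5.1e-10). The type I receptor genes Bmpr1a (30.7 ± 1.53 to 113 ± 9.87, adjusted p = 1.6e-07) and Acvr1 (488 ± 4.58 to 616 ± 38.4, adjusted p = 3.8e-05) rose. Bmpr1b, also a type I receptor gene, had the largest difference of the list, from a very low level. It rose from 0.667 ± 1.15 to 14.7 ± 6.43 (log2 difference 4.07, adjusted p = 0.00028). Acvr2a, a type II receptor of activins, was at 515 ± 27.8 and 529 ± 27.9 and was not called (adjusted p = 0.50). Acvr2b, another type II receptor of activins, fell from a low level, 38 ± 1 to 26 ± 4 (adjusted p = 0.015). Acvr1b, a type I receptor of activins, rose from 505 ± 13.5 to 550 ± 19.6 (log2 difference 0.12, adjusted p = 0.015). The endothelial BMP receptor genes moved little: Acvrl1 fell by 0.19 on the log2 scale (965 ± 13.5 to 848 ± 24.3, adjusted p = 0.00015) and Bmpr2 by 0.16 (1733 ± 34.0 to 1550 ± 55.6, adjusted p = 0.00036).

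Of 22 tested genes of TGF-beta latency and activation, 14 fell, 8 of them at least 2-fold, 7 rose and 1 was not called, with a median of −0.48. Over all tested genes 39.0% fell and 38.3% rose, and the difference between the list and all genes was not tested. TGF-beta is secreted bound to its propeptide and a latent binding protein, stored on fibrillin and released by integrins and proteases. Fbn1, fibrillin-1, fell from 2006 ± 19.7 to 530 ± 75.1 (log2 difference −1.93, adjusted p = 2.1e-05). Pcsk6, a proprotein convertase, fell from 1921 ± 30.9 to 502 ± 167 (−1.99, adjusted p = 0.0018), and Emilin1, which restrains TGF-beta maturation, from 1622 ± 16.1 to 465 ± 94.6 (−1.82, adjusted p = 0.00029). Lrrc32, which holds latent TGF-beta at the cell surface, fell from 2616 ± 23.1 to 2039 ± 27.1 (adjusted p = 3.0e-08). The protease gene Htra1 rose from 22.0 ± 3.00 to 124 ± 12.3 (log2 difference 2.47, adjusted p = 6.3e-08), the latent binding protein gene Ltbp2 from 37.3 ± 4.04 to 73.7 ± 14.4 (adjusted p = 0.00026) and Itgb5 from 62.7 ± 2.52 to 111 ± 11 (adjusted p = 4.2e-05). Ltbp1, another latent binding protein gene, rose from 1084 ± 35.1 to 1812 ± 39.8 (adjusted p = 3.0e-09), and Thbs1, which can activate latent TGF-beta, from 4130 ± 99.5 to 4879 ± 28.1 (adjusted p = 5.9e-07). Itgb1 was at 2293 ± 70.2 and 2326 ± 24.6 and was not called (adjusted p = 0.46), though it was with equal totals or upper-quartile scaling. Pcsk6 and Emilin1 lost their calls when the WT libraries were averaged into 1 sample and CSE-KO 2 and 3 into another.

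Extracellular antagonists other than Fst and Fstl3 rose in 8 of 14 tested genes, 5 of them at least 2-fold, and fell in 4, with a median of 0.31. Of all tested genes, 38.3% rose and 39.0% fell, and the list was not tested against them. The proteoglycan gene Dcn, whose product binds TGF-beta, rose from 74.7 ± 1.53 to 319 ± 33.6 (log2 difference 2.08, adjusted p = 4.5e-09). Dcn is also a fibroblast marker. Of the other 6 fibroblast markers tested, 2 were called lower and 4 were not called. The part of fibroblasts in the rise of Dcn was not tested. Vasn, a trap for TGF-beta, rose from 95.3 ± 12.3 to 293 ± 29.7 (adjusted p = 1.4e-07) and Bmper, which binds BMPs, from 78.3 ± 10 to 220 ± 30.5 (adjusted p = 9.3e-07). Igsf10 fell from 119 ± 2.52 to 27.3 ± 1.53 (log2 difference −2.10, adjusted p = 4.5e-08), Twsg1, which binds BMPs together with chordin, from 1130 ± 11.1 to 718 ± 2.08 (adjusted p = 2.9e-09), and Fstl1 from 1851 ± 39.1 to 1394 ± 60.3 (adjusted p = 4.0e-07). Nbl1 (211 ± 28.0 and 201 ± 12.6) and Wfikkn1 (33.3 ± 2.08 and 31.0 ± 4.58) were not called (adjusted p = 0.58 for each).

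Of the SMADs and their adaptors, 6 of 15 tested genes rose, 5 fell and 4 were not called, and the median absolute log2 difference was 0.17 against 0.43 over all tested genes. Smad1 fell from 1085 ± 18.1 to 743 ± 22.5 (log2 difference −0.55, adjusted p = 3.6e-08), Smad2 from 874 ± 22.4 to 706 ± 16.3 (−0.31, adjusted p = 4.4e-06) and Smad5 from 1331 ± 53.0 to 1161 ± 11.3 (−0.20, adjusted p = 0.00011). Smad3 (1001 ± 40.7 to 921 ± 12.2, adjusted p = 0.0062) and the common partner Smad4 (902 ± 16.8 to 831 ± 4.62, adjusted p = 0.0022) fell by 0.12, and both lost their calls with equal totals. Smad9, a SMAD of the BMP branch, had the largest difference of the list and rose from a low level, 16 ± 2.65 to 45 ± 20.7 (28, 39 and 68 in CSE-KO 1 to 3, log2 difference 1.38, adjusted p = 0.0016). The adaptor and kinase-binding genes Appl1, Zfyve16 and Tab2 rose by 0.25, 0.24 and 0.21 (adjusted p = 1.6e-05, 0.0012 and 8.6e-06). Map3k7, the kinase TAK1, was at 1120 ± 32.3 and 1122 ± 22.7, and Strap at 800 ± 11.4 and 823 ± 9.50, and neither was called (adjusted p = 0.95 and 0.19), though both were with equal totals.

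Intracellular inhibitors and feedback genes rose in 11 of 18 tested genes, fell in 4 and were not called in 3 (median 0.29). Of all tested genes, 38.3% rose and 39.0% fell, and the list was not tested against them. Smad7, the inhibitory SMAD that TGF-beta itself induces, rose: 381, 329 and 331 in WT, against 667, 676 and 759 in CSE-KO (log2 difference 1.01, adjusted p = 9.4e-07). Smurf2, a ubiquitin ligase that acts with it, rose from 1283 ± 16.4 to 2108 ± 56.5 (0.72, adjusted p = 1.4e-09), and Ldlrad4 from 38.7 ± 7.57 to 61.7 ± 8.02 (0.68, adjusted p = 0.0047). The feedback genes Skil (893 ± 18.2 to 1282 ± 17.4, adjusted p = 1.7e-08) and Pmepa1 (292 ± 18.5 to 427 ± 30.8, adjusted p = 1.1e-05) also rose. Bambi, a pseudoreceptor that blocks type I receptors, fell from 136 ± 13.4 to 82.0 ± 9.64 (−0.73, adjusted p = 0.00014), Wwp1 from 1097 ± 29.2 to 795 ± 48.4 (−0.47, adjusted p = 2.5e-06) and Ski from 1037 ± 19.3 to 900 ± 18.7 (−0.20, adjusted p = 4.7e-05). Fkbp1a (1203 ± 36.1 and 1194 ± 7.37) and Usp15 (938 ± 18.6 and 948 ± 34.8) were not called (adjusted p = 0.74 and 0.68), though both were with equal totals.

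**Figure D4:**
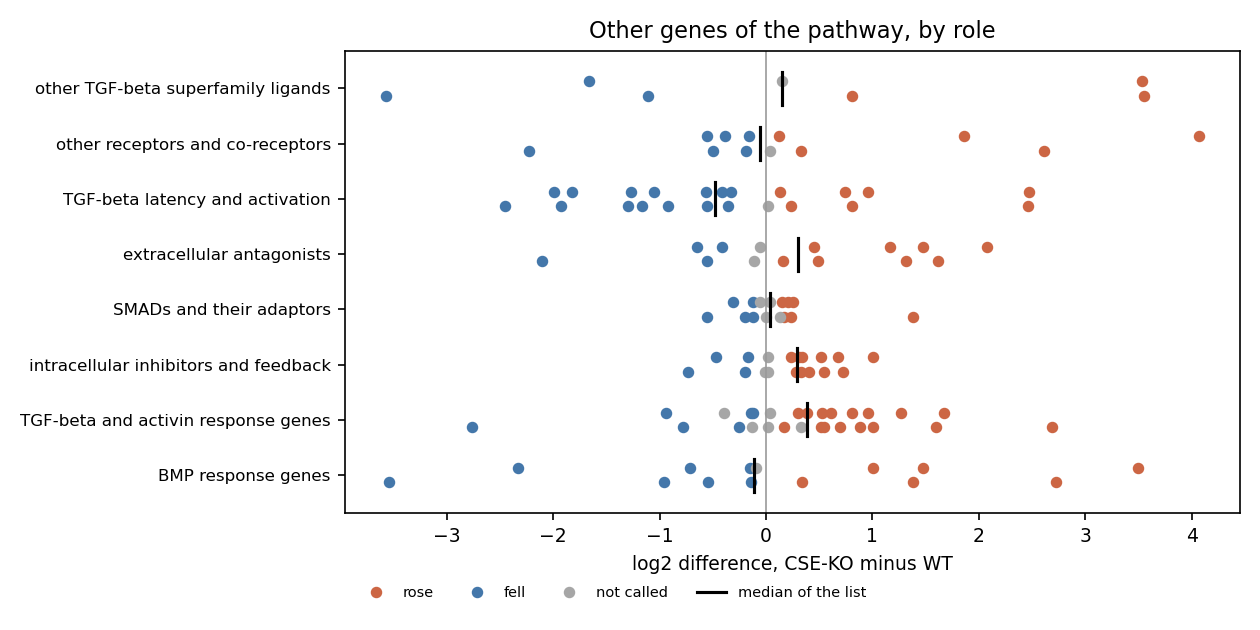
Log2 difference (CSE-KO minus WT) of every tested gene of 8 lists of the pathway, coloured by whether it rose, fell or was not called, with a bar at each list's median. The latency and activation list has its median at −0.48, the response list of TGF-beta and activin at 0.39, and the SMADs lie closest to 0. Some genes stand in more than 1 list.

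Genes known to respond to TGF-beta or activin rose in 16 of 27 tested genes, fell in 6 and were not called in 5, with a median of 0.39. Of all tested genes, 38.3% rose and 39.0% fell, and the difference between the list and all genes was not tested. Cnn1, a calponin of smooth muscle, rose from 14.3 ± 4.16 to 92.7 ± 4.16 (log2 difference 2.69, adjusted p = 3.6e-07), Thbs2 from 366 ± 13.0 to 1166 ± 118 (1.67, adjusted p = 1.3e-07) and the collagen cross-linking enzyme gene Lox from 307 ± 32.3 to 932 ± 123 (1.6, adjusted p = 6.6e-05). Ccn2, a matricellular growth factor gene, rose from 1410 ± 43.7 to 1733 ± 9.02 (0.30, adjusted p = 1.1e-06). The list did not move as 1 block. Tgfbi, named for its induction by TGF-beta, fell from 82.3 ± 11.5 to 12.0 ± 3.61 (−2.76, adjusted p = 9.7e-07), Col3a1 from 156 ± 17.2 to 82.3 ± 21.6 (−0.94, adjusted p = 0.00092), Bhlhe40 from 722 ± 27.5 to 420 ± 36.9 (−0.78, adjusted p = 1.7e-06) and Snai1 from 457 ± 14.4 to 385 ± 9.54 (−0.25, adjusted p = 0.00023). Fn1 (7521 ± 184 and 7743 ± 83.5, adjusted p = 0.058) and Klf10 (767 ± 17.7 and 778 ± 20.4, adjusted p = 0.56) were not called, though both were with equal totals. Mural markers moved in both directions in the same libraries, 3 of 6 tested rising and 2 falling. Acta2, which is in both lists, rose from 259 ± 11.1 to 627 ± 23 (adjusted p = 2.0e-09). Kcnj8, a mural marker outside the response list, fell from 182 ± 6.08 to 13.3 ± 5.86 (adjusted p = 5.2e-07). Des, a mural marker that is also outside that list, rose from 14 ± 1 to 179 ± 32.7 (adjusted p = 6.5e-09).

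BMP response genes rose in 6 of 14 tested genes, fell in 7 and were not called in 1 (median −0.11), beside 38.3% of all tested genes that rose and 39.0% that fell. A difference of at least 2-fold was present in 5 of those that rose and in 2 of those that fell. Among the former were 3 genes of low level: Sema3g, a semaphorin (2.67 ± 1.15 to 34 ± 2, adjusted p = 2.2e-06), Hey2 (2 ± 1.73 to 11.7 ± 0.577, adjusted p = 0.005) and Smad9, given above. Id1, a direct target of SMAD1 and SMAD5, fell from 521 ± 18.6 to 318 ± 24.3 (log2 difference −0.71, adjusted p = 4.7e-07), while Id2 was at 306 ± 28.1 and 287 ± 5.51 and was not called (adjusted p = 0.26). Tmem100, an endothelial target of BMP receptors, fell from 103 ± 2.08 to 9.33 ± 5.77 (−3.54, adjusted p = 1.1e-05), Hey1, which Notch also induces, from 331 ± 36.4 to 68.0 ± 26.3 (−2.33, adjusted p = 0.00066, not called with libraries averaged) and Fam43a from 1307 ± 12.4 to 675 ± 56.0 (−0.96, adjusted p = 3.2e-07). In all 3 of these falls, replicate 1 had the highest value within CSE-KO. Smad6, the inhibitory SMAD of the BMP branch, rose from 204 ± 20.4 to 257 ± 18.9 (0.34, adjusted p = 0.0028), and Bmper and Smad7, described above, are also in this list. Endothelial markers fell in the same libraries, and the part of a change in endothelial cells in these falls was not tested.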

How the data were processed

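mRNA of mouse lung endothelial cells was sequenced in 3 WT and 3 CSE-KO libraries, and groups were taken from the sample titles. The submitters' processing notes name Trimmomatic 0.39, STAR 2.7.3a, Picard 2.21.7, featureCounts 1.6.5, DESeq2 1.26.0 and the build mm10, with no role or order. The authors deposited 1 whole-number score per gene and library, read here as a size-factor-normalized count, rounded: recomputed size factors lay between 1.0026 and 1.0083. No label or header states this unit. Totals only approximate depth in reads. No gene exceeded 0.843 counts per exonic base (Plvap, WT 1), so high levels may be compressed if reads sharing a start were removed.

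Values were tested as log2(value + 0.5) with limma 3.58.1 in R 4.3.3 (trend, robust, two-sided), in genes with at least 10 in at least 3 libraries, with Benjamini-Hochberg adjustment over 13750 genes. In low genes, fold changes on this scale can lie above or below the ratios of group means. The fit was tested on simulated data. Folds quoted are ratios of group means. Exonic lengths came from GENCODE M21 (18940 of 18956 IDs found) and promoters from RefSeq, GRCm38.p6. The p-values cover only the spread among these libraries, which may be technical.

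The 10 genes, the lists and the rules were chosen with earlier results of these data known. Genes named from each pathway list came from those called at a mean value of 50 or more, up to 3 with the largest rise and 3 with the largest fall, and up to 2 uncalled genes with the highest mean; from marker lists, up to 3 with the highest mean. Ccn2, Id1, Tgfbi, Ltbp1, Thbs1, Lrrc32, Acvrl1, Bmpr2, Bmpr1b, Acvr2b, Acvr1b, Smad3, Smad4, Skil, Pmepa1, Smad9, Sema3g, Hey2, Acta2, Mrc1 and Vwf, the macrophage sum without Cd14, and the macrophage markers at 0, were named after their values were seen. Replicate numbers did not pair the libraries. Alternatives covered scaling, filter, pseudocount, variance model, a fold threshold, a replicate block, libraries left out and libraries averaged. A correction for shared start positions was added after the data were seen.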

Additional observations from a re-analysis of the deposited data

How the results depend on the processing

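Each of the 10 genes kept its direction under all 19 alternatives. Their log2 differences ranged from 2.67 to 2.88 for Inhba, −3.12 to −2.74 for Inhbb, −0.88 to −0.70 for Tgfb1, 0.27 to 0.39 for Tgfb2, −0.27 to −0.15 for Bmp4, −0.12 to −0.01 for Bmp6, 0.74 to 0.89 for Tgfbr1, −0.79 to −0.59 for Tgfbr2, −0.16 to −0.07 for Fst and 1.11 to 1.24 for Fstl3. The correction for shared start positions gave 2.88 for Inhba and −3.03 for Inhbb. A test against a fold of 1.2 called 6711 genes in place of 10639, 6 of the 10 genes (not Fst, Tgfb2, Bmp4 and Bmp6), 6 other receptors, 2 SMADs and adaptors in place of 11 and 8 intracellular inhibitors in place of 15. With WT 1 to 3 counted as 1 sample, 8845 genes and 9 of the 10 were called. With CSE-KO 2 and 3 also counted as 1, 8225 genes and 8 of the 10 (not Inhbb and Bmp6) were called, with 7 SMADs and adaptors and 8 BMP response genes in place of 13. Equal totals called 6006 genes higher and 4735 lower, in place of 5270 and 5369, and turned Fkbp1a to a log2 difference of 0.063, called there. Intracellular inhibitors called went from 15 to 17.

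With the replicate block, 10440 genes and 9 of the 10 were called; deviations of same-numbered libraries correlated at −0.017, −0.029 and 0.014, so the numbers are shared in name only. Leaving out 1 library at a time called 10137 to 10636 genes and 9 or 10 of the 10, Bmp6 being called without WT 2 or without CSE-KO 3. The log2 difference of Bmp7 was −3.57 with all libraries, −4.10 without CSE-KO 1, −3.08 without CSE-KO 3, −3.10 with a pseudocount of 4 and −3.28 (not called) with libraries averaged, where Pcsk6, Emilin1, Hey1, Ldlrad4, Cd14, Ednrb, Smad3 and Smad4 also lost their calls with the same directions. Without the filter on low values, 8 other ligands were called in place of 6, 13 receptors in place of 11 and 24 response genes of TGF-beta and activin in place of 22. Low genes such as Amhr2 (1, 0 and 1 in WT, 6, 7 and 9 in CSE-KO) enter there.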
